A study of Mus musculus with 12 samples.

Results

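The cytosolic ribosomal protein genes were followed through 12 RNA-sequencing libraries of the mouse ascending aorta. They were taken as the rows of the deposited gene table whose symbols name a protein of the large (Rpl) or small (Rps) subunit or of the stalk (Rplp), without rows named as pseudogenes (-ps) and without the S6 kinase genes. The rule gave 83 of 21954 rows, of which 48 name proteins of the 60S subunit (with the 3 stalk proteins) and 35 proteins of the 40S subunit. The choice used symbols only and no measured value. All 83 had at least 1 RPKM in at least 3 libraries and entered the tests, with 17297 genes in all.

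RNA came from the proximal and the distal ascending aorta of 6 mice at 2 months of age, 3 of them wildtype littermates of strain 129S6 and 3 of the strain labelled Notch1.129S6+/-. Crossing genotype with location gave 4 groups with 3 libraries in each, and the proximal and distal library with the same number share an animal number in the deposited sample sheet. No treatment was given in the labels, and both genotypes were sampled in the same way. The study asked about the aortic aneurysms of mice that carry 1 working copy of Notch1, a receptor of cell-to-cell signalling. Notch1 itself stood at 1.63 to 2.20 RPKM in the proximal libraries labelled Notch1+/- against 1.11 to 1.56 in wildtype, and at 1.18 to 1.85 against 0.538 to 1.12 in distal tissue. Notch1 was thus not lower in the libraries labelled Notch1+/-. Groups did not overlap in this direction in 7.78% of all tested genes in proximal and 2.63% in distal tissue. Between genotypes, 0 of all tested genes had a limma adjusted p under 0.05 in either tissue. RPKM does not separate the alleles of Notch1, and whether the label holds was not tested. The groups are therefore written here as the libraries labelled Notch1+/-. Smooth muscle markers were present in every library, with the 6 markers summing to 2813 to 5105 RPKM. Total reads per library were 26518332 to 36742096.

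Every cell builds ribosomes from ribosomal RNA and a fixed set of proteins, most of them encoded by a single gene and needed in equal numbers. Their mRNAs are abundant and in mammals begin with a terminal oligopyrimidine tract, a C followed by a run of C and T, through which mTOR signalling controls their translation as a group. The abundant, short mRNAs have been copied back into the mammalian genome many times, and these intronless copies, called processed pseudogenes, resemble the spliced mRNA of the parent gene.

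Stretches of spliced coding sequence that a parent gene and an intronless copy share are shown first, since 3 of the 5 highest rows are such copies. Reads were pairs of 50 bases, and each stretch is taken here without the mate. For 3 parents, the 50 coding bases centred on an exon junction are shown, with the capitals marking the bases of the next exon. The same 50 bases stand without interruption in the intronless copies named after them.
Rps12, exons 2 and 3: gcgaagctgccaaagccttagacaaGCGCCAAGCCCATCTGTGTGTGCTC
Rps3a1, exons 1 and 2: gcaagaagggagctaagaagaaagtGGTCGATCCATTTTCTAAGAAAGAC
Rpl31, exons 2 and 3: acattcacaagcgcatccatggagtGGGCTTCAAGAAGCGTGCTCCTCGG

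The Rps12 stretch is found on the single exon of Rps12l1 at chr7:56014122-56014171, plus strand, in mm10. The Rps3a1 stretch is found in Rps3a2 at chr14:88123722-88123771, minus strand, and in Rps3a3 at chr13:108670640-108670689, plus strand. The Rpl31 stretch is found in Rpl31-ps8 at chr15:90764525-90764574 and in Rpl31-ps9 at chr1:129801633-129801682, both on the minus strand. All 3 coding junctions of Rps12 that could be compared were identical in Rps12l1, all 3 of Rpl31 in Rpl31-ps8 and 1 of 3 in Rpl31-ps9, all 4 of Rpl10 in Rpl10-ps3 and both of Rps23 in Rps23-ps1. Of the 5 junctions of Rps3a1, 4 were identical in Rps3a2 and 2 in Rps3a3, and no stretch differed by more than 1 base. Such a difference is shown for the junction of exons 3 and 4 of Rps3a1, with the base of Rps3a3 that differs in capitals.
Rps3a1, exons 3 and 4: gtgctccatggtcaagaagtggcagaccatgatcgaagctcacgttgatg
Rps3a3, same stretch: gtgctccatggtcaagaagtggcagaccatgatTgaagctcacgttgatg

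A read of the parent mRNA over an identical stretch, taken without its mate, has at least 2 places in the genome to align. Among the parent and the copies shown, only the parent place needs a spliced alignment. How the counting placed such reads is not given in the sources used here, so the levels of parents and copies are uncertain beside each other.

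Start sites were read from RefSeq windows of the same build (GRCm38.p6), which were found for 59 of the 83 genes. A C at the annotated start followed by at least 4 bases of C or T stood at the start of 13 of these genes, in 18.6% of their 70 windows against 2.51% of 32851 windows of all genes. A selection is shown as 30 bases with the tract in capitals, beginning at the start site, since it is the feature by which these mRNAs are known.
Rps6, chr4:86857353-86857382, minus strand: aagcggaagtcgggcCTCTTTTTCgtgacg
Rpl28, chr7:4792950-4792979, plus strand: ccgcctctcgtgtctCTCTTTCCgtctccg
Rpl38, chr11:114668565-114668594, plus strand: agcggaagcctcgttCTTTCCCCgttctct
Rps10, chr17:27635230-27635259, minus strand: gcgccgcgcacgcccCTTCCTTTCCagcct
Rplp2, chr7:141447636-141447665, plus strand: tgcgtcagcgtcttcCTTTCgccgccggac

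The other 8 genes with a tract at the annotated start were Rpl14, Rpl15, Rpl35, Rpl35a, Rps15a, Rps18, Rps21 and Rps27. Only the annotated start base was searched. In windows of 300 bases (250 before and 50 after the start), CCGGAAG, the core of sites for ETS factors, was found on either strand in 35.7% of the windows of these genes and in 8.86% of all windows. AAGATGGCG, the core of YY1 sites, stood in 8.57% (6 of 70 windows) against 1.40%, and TATAAA in 10.0% against 13.6%. Some genes have several windows, and those of Rpl35a, which hold AAGATGGCG, overlap. Counted by gene, AAGATGGCG stood in 4 of 59 genes (6.78%) against 1.64% of all genes. The end of CCGGAAG can overlap the start of AAGATGGCG. These matches describe letters and not bound sites.

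The genes spanned a 192-fold range of mean level (RPKM, reads scaled to gene length and library depth). The highest mean was 184.9 RPKM for Rpl41, which encodes the shortest protein of the ribosome (chromosome 10, 128548114 to 128549305, minus strand, mm10). Its 12 libraries lay between 145.3 and 219.2 RPKM with a median of 187.0. Rps12l1 followed at a mean of 172.6 RPKM, Rpl4, a core protein of the large subunit, at 160.3, Rps3a3 at 159.7 and Rps3a2 at 131.9. These 5 held 24.9% of the summed RPKM of the 83 genes, and the highest 10 held 40.2%. In all, 7 genes had means over 100 RPKM, 55 lay between 10 and 100, and 21 were under 10.

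At the low end stood Rps4l at 0.961 RPKM, with Rpl35a at 3.85, Rpl34 at 4.11, Rps15a at 4.63 and Rpl22l1 at 5.21 above it. The median of the means was 23.4 RPKM in the 60S rows and 28.4 in the 40S rows. The 40S rows hold the intronless copies Rps12l1, Rps3a2, Rps3a3 and Rps4l, so these medians do not compare the proteins of the subunits. The coefficient of variation of a gene over the 12 libraries had a median of 17.0% (range 8.17% to 45.1%). Over all tested genes it was 28.5%, and over the 2832 tested genes within the interquartile range of the members' means it was 20.9%.

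**Figure D1:**
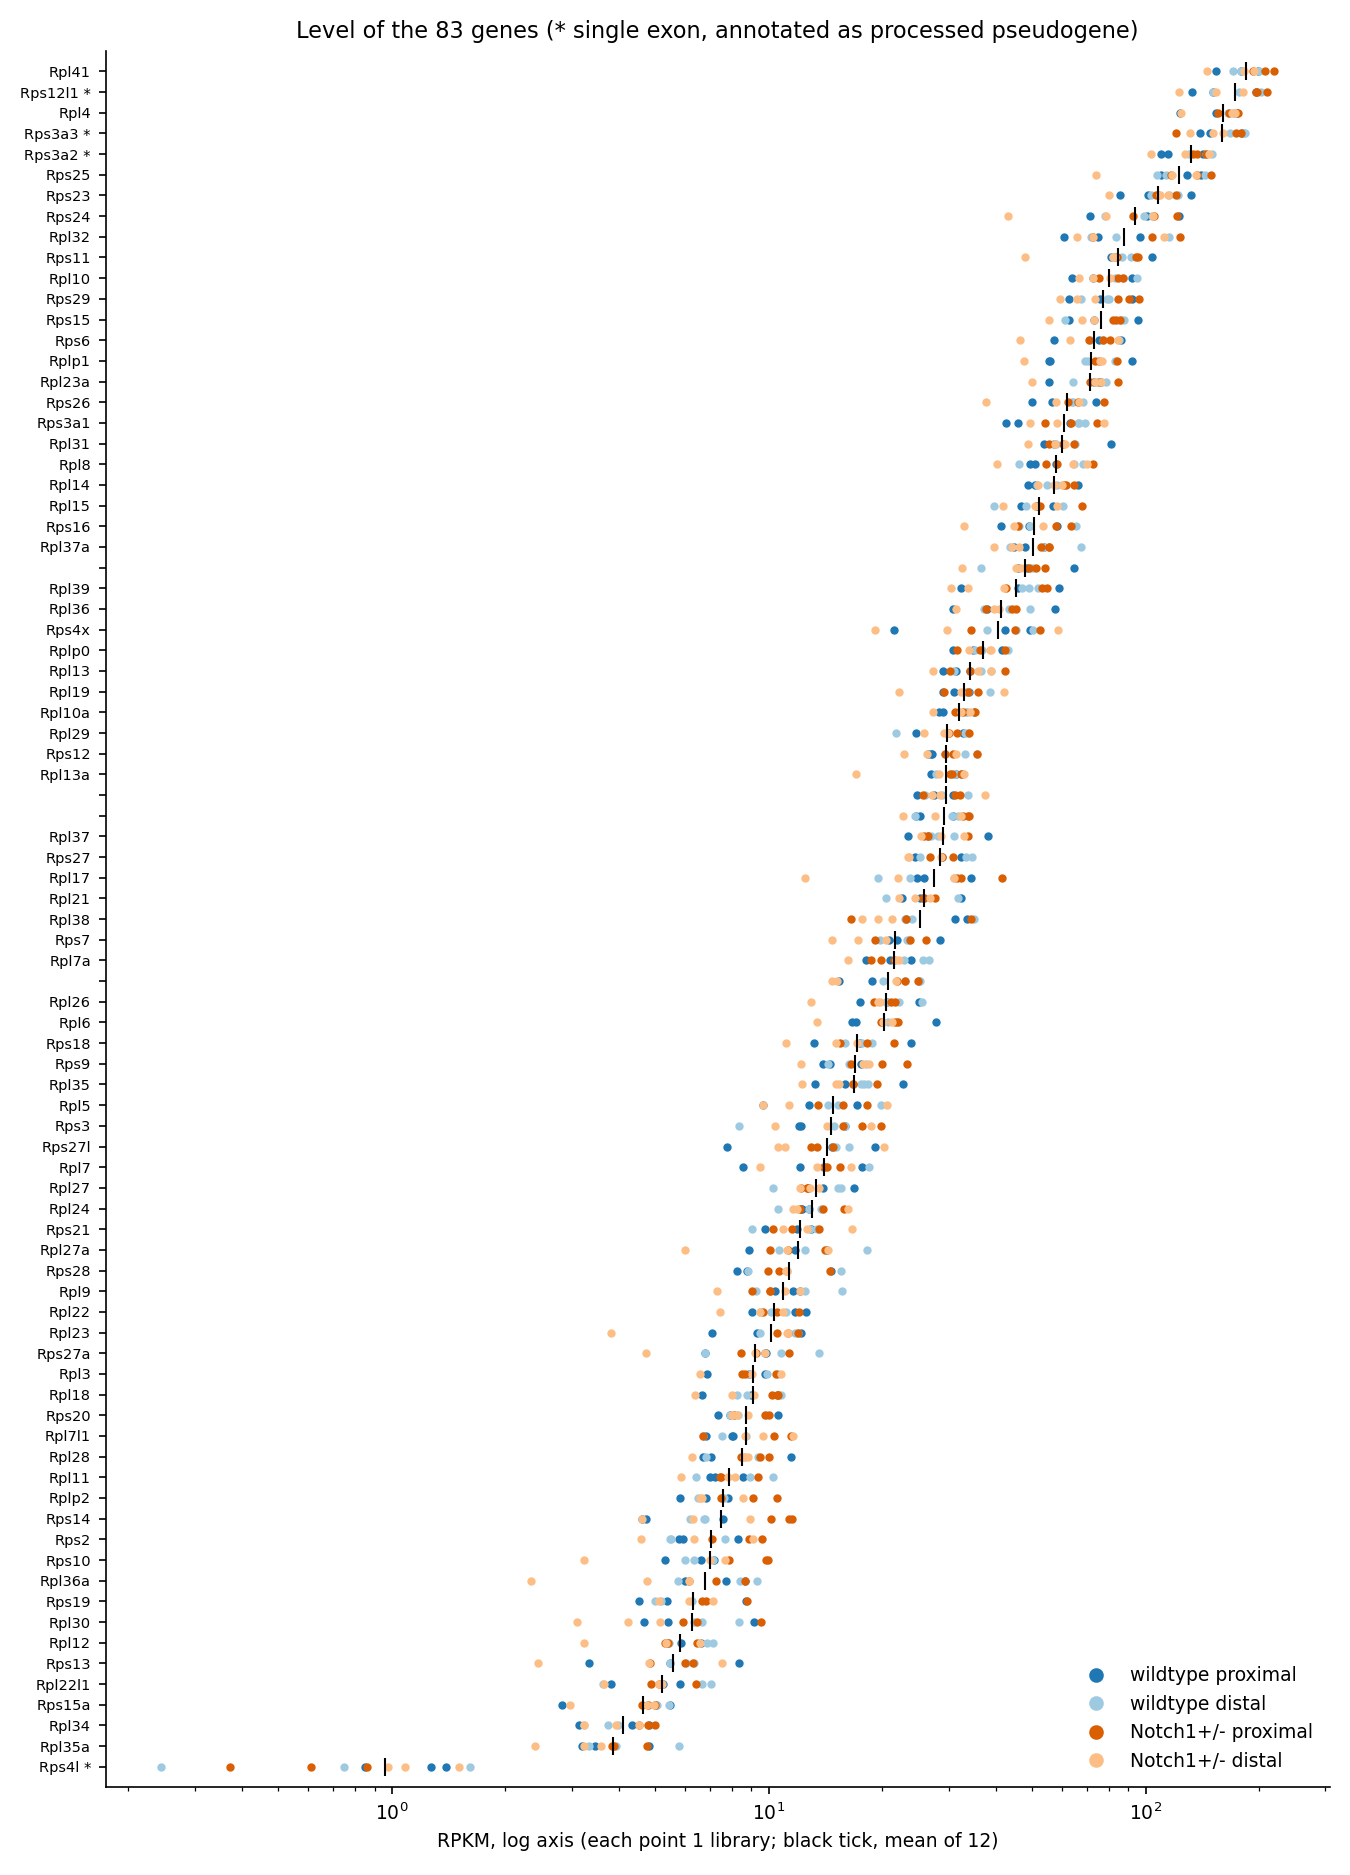
RPKM (log axis) of the 83 genes in order of mean level, with 1 point per library coloured by group and a black tick for the mean of 12 libraries; a few rows carry no name. Stars mark the 4 single-exon genes, of which 3 stand among the 5 highest means, while Rps4l stands alone at 0.961 RPKM.

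Of the 83 rows, 79 were annotated as protein-coding in GENCODE M21 and 4 as processed pseudogenes with a single exon, namely Rps12l1, Rps3a2, Rps3a3 and Rps4l. The symbols of these 4 follow the gene names of the ribosomal proteins, so the rule kept them. Rps12l1 read 4.97 to 7.22 times the RPKM of its parent Rps12 in the 12 libraries. Rps12 itself, a protein of the small subunit, had 22.9 to 35.7 RPKM over libraries. Rps3a2 stood at 1.84 to 2.57 times and Rps3a3 at 1.63 to 3.26 times the level of Rps3a1, which encodes the protein of the small subunit that all 3 genes resemble. Each of these 3 copies was above its parent in 12 of 12 libraries.

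The same held beyond the 83 genes. The table had 216 rows named as pseudogenes of 54 of the genes, and in each library their summed RPKM was 4.60 to 5.31 times that of the 83 genes, at 12537 to 19837. For 44 of the 54 genes the named pseudogenes together read more than the gene itself. The highest was Rpl31-ps8 at a mean of 1112 RPKM against 59.9 for its parent Rpl31, followed by Rpl31-ps9 at 635.0. Rpl10-ps3 reached 421.2 against 80.0 for Rpl10, and Rps23-ps1 reached 500.5 against 108.2 for Rps23. Searching by sequence found 798 pseudogene rows that hold at least 1 stretch of 50 bases of a member's main transcript, and they summed to 10.1 to 11.2 times the RPKM of the 83 genes in a library.

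**Figure D2:**
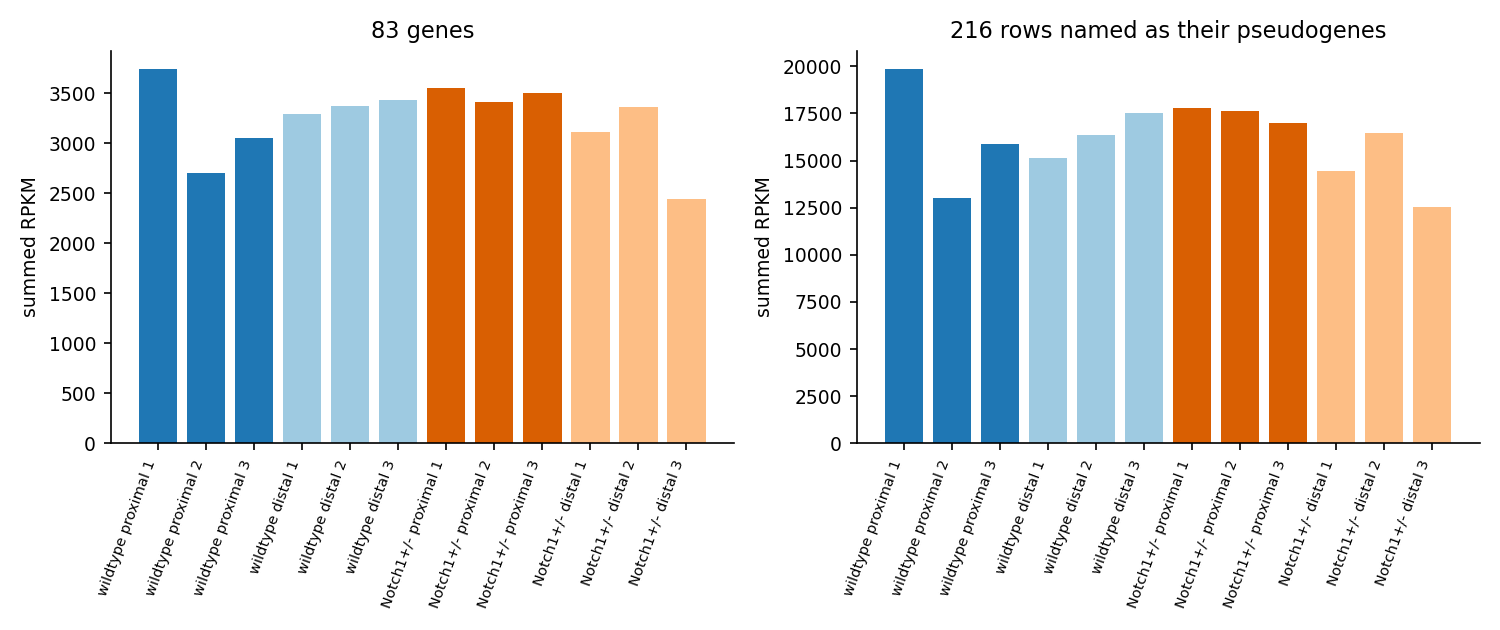
Summed RPKM per library of the 83 genes (left) and of the 216 rows named as their pseudogenes (right), 1 bar per library, coloured by group, on axes that start at 0. The sums run from 2438 to 3737 on the left and from 12537 to 19837 on the right, and Notch1+/- distal 3 is lowest in both.

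In a median protein-coding member, 61.2% of the 50-base stretches of the main transcript also occur in another annotated transcript. Reads came in pairs and the mate was not considered, so this is not the share of read pairs with several places. The share was over 50% in 51 genes and over 90% in 6. Rps3, a protein at the mRNA entry of the small subunit, shared 2.96%, Rpl8 7.86% and Rpl4 16.5%. In 70 of the 79 protein-coding members the pseudogenes that share a stretch read more in sum than the gene. By the deposited RPKM, Rpl30 had the largest ratio, at 202.7, and Rpl35a, the second lowest gene of all, followed at 188.2. These ratios set 13 and 17 pseudogene rows against a single gene. The lengths behind the RPKM of Rpl30 and Rpl35a were 5.30 and 7.18 times the main transcript, which lowers their RPKM and raises the ratios. With reads divided by the length of the main transcript, they stood at 33.1 and 27.7 RPKM.

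Levels also followed the length that the RPKM was divided by. The lengths could be worked back from the steps between values. In the protein-coding members their median was 1631 bases, against 681 bases for the main transcript, and in 54 of the 83 genes they equalled the summed length of all exons annotated in GENCODE M21. The ratio of the 2 lengths ran from 0.521 to 9.80, and was highest in Rps15a (6270 against 640 bases). Across the 79 genes the mean RPKM fell with the length used (Spearman rho -0.66, a description across genes that share libraries). The RPKM holds this length as its divisor, so a negative rho is partly built in. The rho of the mean RPKM with the share of stretches found elsewhere was -0.11.

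Dividing the same reads by the length of the main transcript changed the order. Rpl41 then stood at 494.2 RPKM, Rpl10, a late-joining protein of the large subunit, at 205.5 and Rpl31, which lies at the exit of the peptide tunnel, at 204.4. The lowest protein-coding gene was then at 9.60, and the median was 45.2 RPKM. The main transcript of that lowest gene has 3706 bases, of which 357 are coding, so its level depends on the transcript chosen. The orders by the deposited and the recomputed level had a rho of 0.74. The reads behind a protein-coding gene were 67 to 4982 per library, while Rps4l rested on 4 to 24 reads.

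**Figure D3:**
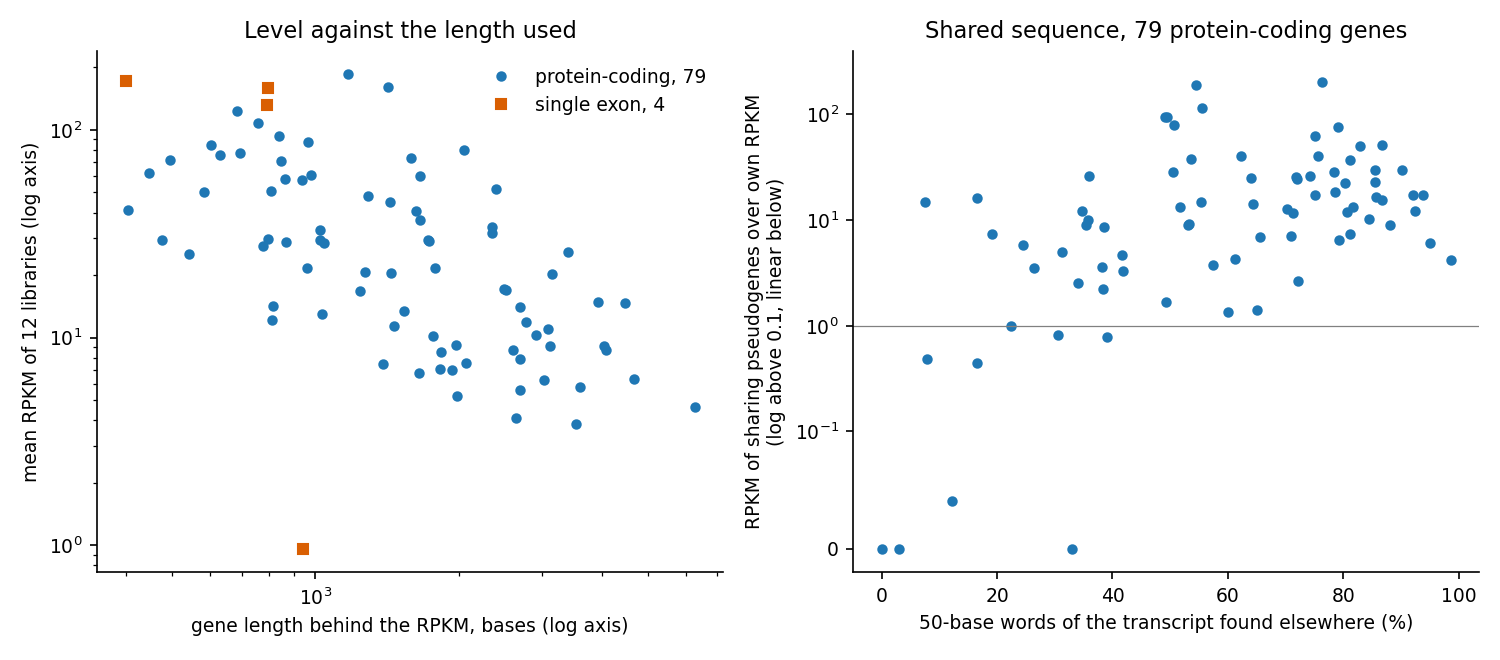
Left, mean RPKM of the 12 libraries against the gene length behind the RPKM (both log axes), with the 79 protein-coding genes as circles and the 4 single-exon genes as squares. Right, for the 79 protein-coding genes, the summed RPKM of pseudogenes that share a stretch over the gene's own RPKM (log above 0.1, linear below), against the share of 50-base stretches found elsewhere. The points fall with length on the left, and 70 of 79 lie above the line at 1 on the right.

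Some ribosomal proteins have a second gene that encodes a variant. Rps27l, a variant of Rps27 induced by p53, had a mean of 14.2 RPKM and Rps27 28.4, with a ratio of 0.316 to 0.863 over libraries. Rpl22l1, a paralog of Rpl22, stood at 5.21 against 10.3 RPKM, with a ratio of 0.327 to 0.741. Rpl7l1, a protein of ribosome assembly, stood at 8.69 against 14.0 RPKM for Rpl7, with a ratio of 0.408 to 0.912. Each of these variants was below its partner in 12 of 12 libraries, though the share of stretches found elsewhere differed widely within a pair, at 12.2% in Rpl7l1 and 53.3% in Rpl7. The lengths behind the RPKM also differed within pairs, so the size of these ratios depends on them. On the length of the main transcript the means were 23.3 RPKM for Rps27l and 85.9 for Rps27. They were 18.8 for Rpl22l1 and 63.5 for Rpl22, and 17.3 for Rpl7l1 and 32.4 for Rpl7. Rps4l, a single-exon copy, read 0.00645 to 0.0512 of the RPKM of Rps4x, the X-linked gene of a small-subunit protein. The variants Rpl3l, Rpl10l and Rpl39l were not among the 83 genes, though the rule on symbols would take them. Their partners Rpl3, Rpl10 and Rpl39 had means of 9.07, 80.0 and 45.2 RPKM.

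Among genes with roles beyond the ribosome, Rps6, the substrate of S6 kinase, had a median of 76.2 RPKM and a range of 46.5 to 85.9. Rpl5 and Rpl11, which bind Mdm2 when ribosome assembly fails, stood at means of 14.8 and 7.87 RPKM. Rps19, the gene first tied to Diamond-Blackfan anaemia in humans, had a mean of 6.31 RPKM, Rpl38, needed for the translation of Hox mRNAs in mouse embryos, 25.2, and Rpl13a, a regulator of inflammatory mRNAs in human monocytes, 29.5. The stalk, which recruits elongation factors, was uneven in the deposited RPKM: its base Rplp0 had a mean of 37.0 RPKM, and its lateral proteins Rplp1 and Rplp2, which pair with each other, had medians of 74.3 and 7.51. The lengths used differed, at 0.992 times the main transcript for Rplp1 and 4.92 times for Rplp2. On the length of the main transcript the means were 45.2 RPKM for Rplp0, 70.9 for Rplp1, 37.3 for Rplp2 and 46.7 for Rps19.

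The genes tended to move together from library to library. In the wildtype proximal libraries 1, 2 and 3 the summed RPKM was 3737, 2698 and 3047. In the wildtype distal libraries it was 3291, 3370 and 3430. The proximal libraries labelled Notch1+/- gave 3551, 3411 and 3497, and the distal ones 3114, 3363 and 2438. The widest spreads were in wildtype proximal (3160 ± 529, SD, n = 3) and Notch1+/- distal (2972 ± 479), while wildtype distal (3364 ± 69.6) and Notch1+/- proximal (3486 ± 71.0) were narrow. Wildtype proximal held both the highest library of all and the second lowest, and its range contained that of every group but Notch1+/- distal.

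Notch1+/- distal 3 was the lowest of the 12 libraries for 49 of the 83 genes and wildtype proximal 2 for 14, while wildtype proximal 1 was the highest for 24. In Notch1+/- distal 3 the genes lay a median of 0.42 below their own means over libraries on the log2(RPKM + 0.5) scale, and 74 of 83 were below. The median over all tested genes in that library was 0.19 below. In wildtype proximal 1 the genes lay a median of 0.23 above, against 0.01 for all tested genes. All tested genes lay further out in wildtype distal 2 and 3 (0.10 and 0.09 against 0.08 and 0.06). They did so too in Notch1+/- distal 2 (0.21 against 0.05). In wildtype proximal 3 both stood at -0.08, and in the other libraries the 83 genes lay further out. A gene's values over the 12 libraries had a median correlation of 0.46 with those of another (3403 pairs, 89.8% of them positive), where all pairs share the same libraries and their scaling. No such value was computed for other genes. Of all tested genes, 67.5% lay below their own means in Notch1+/- distal 3 and 70.3% in wildtype proximal 2. Among the 83 genes Rps26 had the highest correlation with the mean of the others (0.96), and only Rps4l (-0.12) and Rps21 (-0.33) were negative.

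Reads from the mitochondrial genome took 24.1% to 43.7% of the summed RPKM, with 41.3% in Notch1+/- distal 3 and 43.7% in wildtype proximal 3. The 83 genes took 0.164% (Notch1+/- distal 3) to 0.291% (Notch1+/- distal 2) of the summed RPKM, or 0.280% to 0.424% of that without mitochondrial genes. What part the mitochondrial share has in the library differences was not tested. In bulk tissue, fewer cells of a type and less RNA per cell cannot be told apart.

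**Figure D4:**
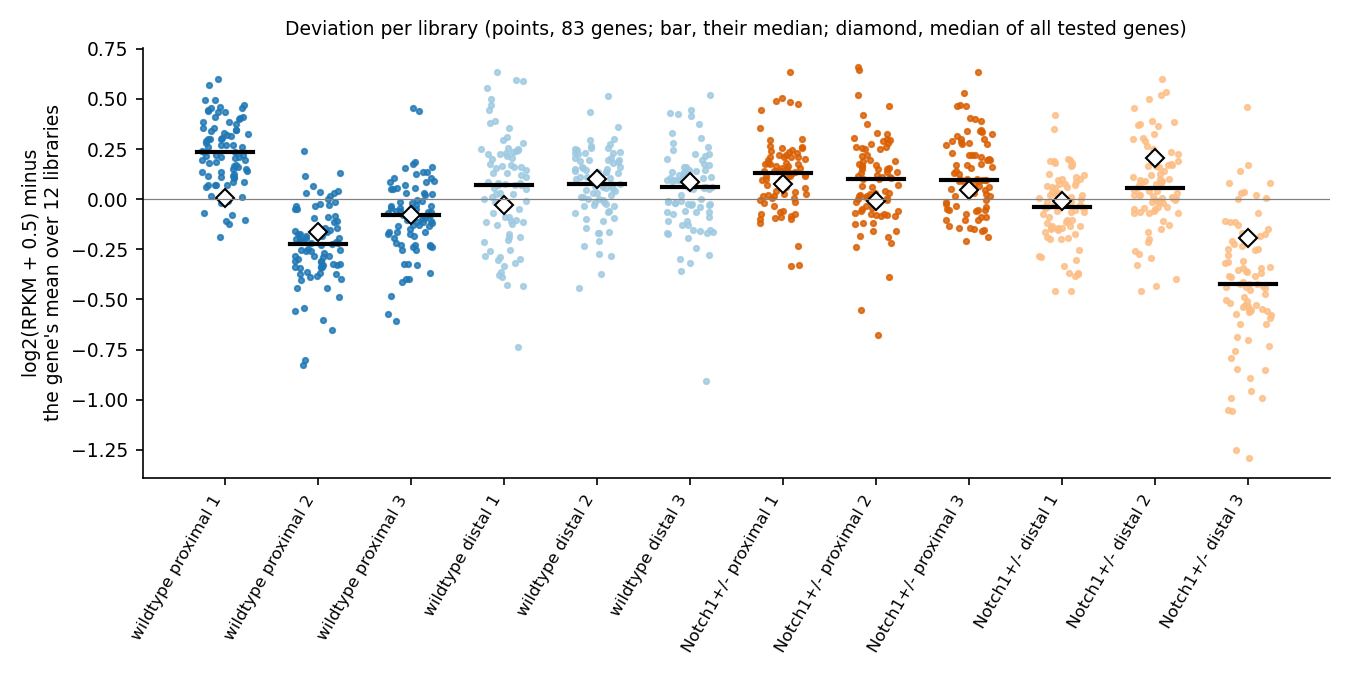
Difference of log2(RPKM + 0.5) from the gene's own mean over 12 libraries, 1 point per gene and library, with a bar for the median of the 83 genes and a diamond for the median of all 17297 tested genes. The genes sit lowest in Notch1+/- distal 3 (median -0.42) and highest in wildtype proximal 1 (median 0.23), further from 0 than all tested genes in both. In wildtype distal 2, wildtype distal 3 and Notch1+/- distal 2 all tested genes lie further from 0.

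Differences between groups were tested over all 17297 genes with limma on log2(RPKM + 0.5), a scale that understates the change of low genes, with Benjamini-Hochberg adjusted p under 0.05 as the threshold. Between locations in wildtype mice, 0 of 83 genes were called, where 0.237% of all tested genes were (41 genes, and 21 with the mouse as a block). At an unadjusted p under 0.05 limma also had 0 of the 83 and 8.26% of all genes. The median fitted difference, proximal minus distal, was -0.10 (range -0.43 to 0.40) beside -0.13 for all genes. It was 0.05 after median-of-ratios scaling, where that of all genes was 0.00196.

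The lowest adjusted p was 0.629, for Rps3a1. Its libraries read 63.0, 45.7 and 42.7 RPKM in proximal and 69.1, 66.7 and 66.3 in distal tissue. All 3 distal values were above all 3 proximal ones. The fitted difference was -0.43 (SE 0.21, 95% interval -0.88 to 0.01). Rps12 was the other gene without overlap, at 27.2, 26.4 and 27.0 RPKM in proximal and 33.1, 29.3 and 35.7 in distal tissue. Groups did not overlap with proximal lower in these 2 genes of 83, and in 11.1% of all tested genes. They did not overlap with proximal higher in 0 of 83, and in 2.61% of all tested genes. The other genes with the lowest fitted differences were Rpl5 (-0.33), Rpl7 (-0.32), Rps4x (-0.31) and Rps12 (-0.27), and among the highest were Rps4l (0.40), Rpl17 (0.20), Rpl34 (0.13) and Rps19 (0.12). The SE of these differences ran from 0.16 to 0.38.

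Between locations in the libraries labelled Notch1+/-, 0 of 83 genes were called by limma, where 0.254% of all tested genes were (0.214% higher and 0.0405% lower in proximal tissue). The fitted differences leaned to proximal, with 75 of 83 above 0 where 53.2% of all genes were, and a median of 0.25 beside 0.02 for all genes. At an unadjusted p under 0.05 there were 7 of 83 genes (8.43%), all higher in proximal tissue, and 7.17% of all genes. Groups did not overlap with proximal higher in 19 of 83 genes, where 7.55% of all tested genes did the same, and with proximal lower in 1 gene, Rps4l, beside 5.53%. Without Notch1+/- distal 3 the median was 0.09 beside -0.07 for all genes.

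The highest fitted differences were 0.75 (SE 0.29) for Rpl17, 0.75 (SE 0.30) for Rpl36a, 0.74 (SE 0.27) for Rpl30, 0.73 (SE 0.24) for Rps14 and 0.66 (SE 0.27) for Rps10, with limma adjusted p of 0.402 to 0.596. Rpl39 (0.50) and Rps29 (0.45) were the other genes at an unadjusted p under 0.05. Rpl30, a large-subunit protein that in yeast controls its own splicing, read 9.54, 6.45 and 5.92 RPKM in proximal and 4.22, 5.14 and 3.09 in distal tissue. All its proximal values were above its distal ones, and the lowest of the 6 was Notch1+/- distal 3. Rpl36a, an X-linked gene of the large subunit, read 7.24, 6.15 and 8.64 RPKM against 6.14, 4.77 and 2.33, again without overlap and with the same library lowest. At the other end stood Rps4l (-0.61), Rps21 (-0.16), Rpl7l1 (-0.09) and Rpl27 (-0.04).

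Averaged over genotypes, 0 of 83 genes were called by limma, where 1.5% of all tested genes were (0.775% higher and 0.728% lower). The median fitted difference was 0.07 beside -0.05 for all genes, and it was -0.02 beside -0.12 when RPKM were rescaled to a constant sum. Rpl17, which lies at the exit of the peptide tunnel, was the only gene at an unadjusted p under 0.05, where 11.1% of all genes were, with a difference of 0.48 (SE 0.21, adjusted p 0.402). It was followed by Rpl36a (0.35), Rps10 (0.31), Rps24 (0.31) and Rpl30 (0.28), while Rps3a1 (-0.19), Rpl7a (-0.12), Rps4l (-0.10), Rps27l (-0.10) and Rps21 (-0.09) were lowest. Within mice, 35 genes were higher in proximal tissue in all 3 mice labelled Notch1+/- (14.9% of all tested genes were) and 1 was lower in all 3 (13.1% of all). In the 3 wildtype mice, 12 genes were lower in proximal tissue in each (24.7% of all) and 0 were higher in each (6.9% of all). The median difference was 0.18, -0.30 and -0.16 in wildtype mice 1, 2 and 3 and 0.15, 0.02 and 0.57 in the mice labelled Notch1+/-.

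Heart muscle markers moved with location. The 12 markers summed to 263.2 to 1634 RPKM in proximal and 25.5 to 316.9 in distal libraries, so the ranges overlapped, and 8 of the 12 were called higher in proximal tissue averaged over genotypes. Among them Tnnc1 had means of 27.1 and 29.4 RPKM in proximal and 5.63 and 2.41 in distal tissue, wildtype first. Of these markers 10 were never at the value that replaces low readings, and Myl4 and Myl7 were at it in 1 library each. Their part in the differences of the ribosomal protein genes was not tested. Of 8 skeletal muscle markers listed, only 1, Ckm, was in the deposited table. It was also called higher in proximal tissue averaged over genotypes, and this 1 gene does not show whether skeletal muscle was present. Of 5 fibroblast markers Pi16 was called lower, and none of the markers of smooth muscle, endothelium, macrophages, fat or red cells was called (6, 6, 5, 3 and 5 tested). Red cell markers summed to 4.28 to 180.8 RPKM over libraries.

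Between genotypes in proximal tissue, 0 of 83 genes were called by limma, where 0% of all tested genes were. The median difference, labelled Notch1+/- minus wildtype, was 0.14 beside 0.11 for all genes. After median-of-ratios scaling it was 0.01, and without wildtype proximal 2 it was 0.02. Rps14, a small-subunit protein whose loss underlies a human myelodysplastic syndrome, stood furthest out. It read 7.58, 4.72 and 4.62 RPKM in wildtype and 10.1, 11.5 and 11.3 in the libraries labelled Notch1+/-, without overlap. The difference was 0.93 (SE 0.24, 95% interval 0.41 to 1.46, unadjusted p 0.00204, limma adjusted p 0.999), and the reads behind it were 112 to 289 per library in these 6.

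Of the 83 genes Rps14 alone was at an unadjusted p under 0.05 in this comparison, where 3.24% of all genes were. Groups did not overlap with the libraries labelled Notch1+/- higher in 5 genes, among them Rps10, Rps12 and Rps14, where 7.78% of all tested genes did the same, and lower in Rpl9, beside 1.4%. After Rps14 came Rps10 (0.50), Rps3 (0.40), Rplp2 (0.38) and Rps9 (0.36). The lowest were Rps4l (-0.59), Rpl38 (-0.28), Rpl9 (-0.21), Rpl27 (-0.20) and Rpl7a (-0.07).

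Between genotypes in distal tissue, 0 of 83 genes were called by limma, where 0% of all tested genes were. The fitted difference was below 0 in 70 of 83 genes, with a median of -0.19 beside -0.04 for all genes. Without Notch1+/- distal 3 the median was -0.04 beside 0.05. At an unadjusted p under 0.05 there were 3 genes, Rpl36a (-0.82, SE 0.30), Rpl30 (-0.72, SE 0.27) and Rpl39 (-0.48, SE 0.22), all lower in the libraries labelled Notch1+/-, where 3.03% of all genes passed in either direction. Rpl36a read 9.31, 8.39 and 5.74 RPKM in wildtype distal libraries, so its lowest wildtype value lay below the highest of the libraries labelled Notch1+/-. Rpl30 read 6.34, 6.67 and 8.32 in wildtype, above every library labelled Notch1+/-.

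Groups did not overlap with the libraries labelled Notch1+/- lower in 8 of 83 genes, where 3.73% of all tested genes did the same, and higher in 0, beside 2.63%. These 8 were Rpl7a, Rpl10, Rpl26, Rpl30, Rpl35, Rpl38, Rpl39 and Rps3a3. Rpl38 (-0.46) and Rpl23 (-0.45) came next among the lowest fitted differences. The highest were Rps4l (0.42), Rpl7l1 (0.36), Rps21 (0.18), Rps3 (0.15) and Rps19 (0.14), each with a limma adjusted p of 1.

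For the difference of the location effect between genotypes, 0 of 83 genes were called by limma, where 0% of all tested genes were. The fitted value, positive where the proximal excess was larger in the libraries labelled Notch1+/-, was above 0 in 78 of 83 genes where 68.7% of all genes were. Its median was 0.31 beside 0.16 for all genes, and 0.12 beside -0.01 after median-of-ratios scaling. Without the 2 libraries lowest in summed RPKM, Notch1+/- distal 3 and wildtype proximal 2, it was 0.05 beside 0.01. Rps14 (0.97, SE 0.34, unadjusted p 0.0141), Rpl30 (0.93) and Rps12 (0.53) were among 4 genes at an unadjusted p under 0.05, where 2.93% of all genes were. Rpl36a (0.80), Rps4x (0.73) and Rpl23 (0.72) completed the 5 highest, and Rps4l (-1.01), Rps21 (-0.14), Rpl27 (-0.13), Rpl7l1 (-0.09) and Rpl37 (-0.02) were lowest. The protein-coding genes of the 40S (31) and 60S (48) subunits had medians of 0.39 and 0.29.

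**Figure D5:**
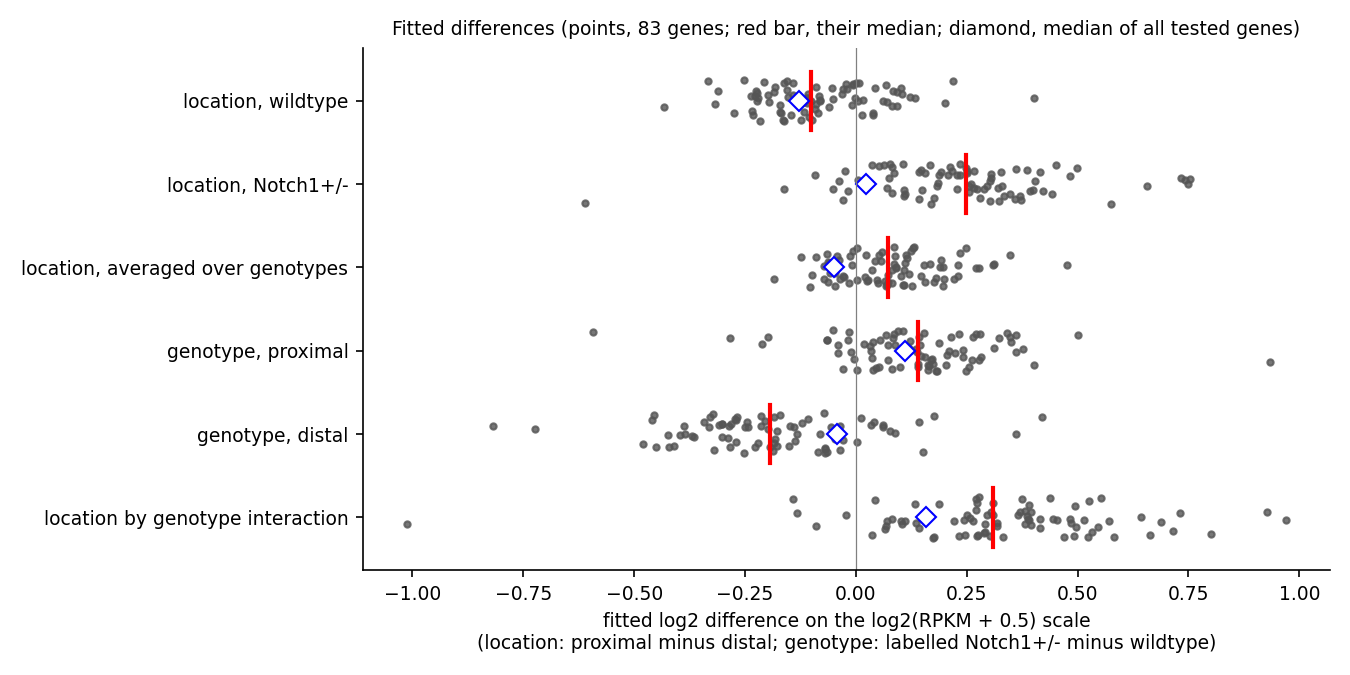
Fitted log2 differences on the log2(RPKM + 0.5) scale in the 6 comparisons, 1 point per gene, with a red bar for the median of the 83 genes and a diamond for the median of all 17297 tested genes. The genes lie above all tested genes between locations in the libraries labelled Notch1+/- (0.25 against 0.02) and below them between genotypes in distal tissue (-0.19 against -0.04), with 0 genes called.

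The median SE of the 83 genes was 0.21 for comparisons within 1 genotype or location, 0.15 for the average and 0.30 for the interaction.

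In the authors' deposited table, 0 of the 83 genes had a false discovery rate under 0.05 in any of the authors' comparisons. Of all 21954 rows in the authors' deposited table, 145 (0.660%) were under that limit for location, 4 for genotype, 1 for the interaction and 0 to 9 in the pairwise Tukey comparisons. The authors' unadjusted p was under 0.05 for genotype in 1 gene, Rps14 (0.0311), for location in 0, with Rps29 lowest (0.0565), and for the interaction in 5, with Rps12 lowest (0.0170), per the authors' deposited table. The shares of all rows under that limit in the authors' deposited table were 3.56%, 10.5% and 3.17%. The lowest Tukey p in the authors' deposited table was 0.00811, for Rpl37a between locations in the libraries labelled Notch1+/-.

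Genes that work with the ribosome were counted beside its proteins. The 5 ribosomal protein genes outside the name rule (among them Rpsa and Rack1) had 0 calls, and their median difference was 0.24 between locations in the libraries labelled Notch1+/- and -0.13 between genotypes in distal tissue. Of 17 translation factors and other genes of oligopyrimidine mRNAs, 1 was called, Naca, a chaperone of nascent chains. It had means of 18.5 and 18.3 RPKM in proximal and 11.7 and 9.98 in distal tissue, wildtype first (averaged log2 difference 0.73, SE 0.16, limma adjusted p 0.0394). The median of these 17 genes was 0.17 between locations in the libraries labelled Notch1+/- and -0.12 between genotypes in distal tissue. Both comparisons hold the distal libraries labelled Notch1+/-, so they are not independent. In those libraries 1, 2 and 3 the 17 genes summed to 663.7, 735.5 and 493.2 RPKM.

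The factors that assemble ribosomes (34 tested) had 0 calls in the 6 comparisons and medians of 0.03 and 0.06 in the same pair of comparisons. The 16 tested genes of mTOR and S6 kinase control had 0 calls and medians of -0.05 and -0.03. The 77 mitochondrial ribosomal proteins, which serve a separate ribosome, had 0 calls and medians of 0.10 and -0.14. Medians of all tested genes were 0.02 and -0.04.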

How the data were processed

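Members and lists were chosen with earlier results of these data known. RNA of each library was amplified from 10 ng with a kit that does not mark strand, and read as pairs of 50 bases, per the labels' protocols. Reads were aligned to mm10 with TopHat2 2.1.0 and Bowtie2, per the submitters' processing notes. How reads were counted, and with which tool, is not given in the sources used here. In the table that the authors deposited, each gene has an RPKM per library, and readings under 0.1578 stand at 0.1578; 0 of the 83 genes had such a value. The authors also deposited p-values, false discovery rates and fold changes. The total reads and thresholds were taken from the authors' deposited values, per the file headers.

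From the RPKM, log2(RPKM + 0.5) of the 17297 genes with at least 1 RPKM in at least 3 libraries was fitted with limma 3.58.1 (R 4.3.3) as 4 group means with a variance trend, 2-sided, and tested on simulated data. The pairing of libraries comes from the deposited sample sheet, in which the proximal and distal library of the same number and genotype carry 1 animal number, and from the labels' protocols, which name 6 mice for 12 libraries; the deviations of a mouse's 2 libraries from their group means had correlations of 0.0731 to 0.216 over genes, and the mouse as a block was an alternative. The replicates of a group are separate mice. Alternatives changed the pseudocount, filter, scaling, variance trend, libraries and the treatment of pseudogene rows. Gene lengths and reads were worked back from the steps between RPKM values (whole within 0.02 reads), and compared with GENCODE M21. Named genes were the 5 highest and 5 lowest in level and in each comparison, variants with their partners, and a set with known roles, with others named from small counts after their values were seen. A total of 24 columns of per-sample values (a re-sorted copy and a correlation matrix) were not used. Promoter windows came from RefSeq. Some genes are not reported here by name.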

Additional observations from a re-analysis of the deposited data

Results flagged for a closer look

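Rps12l1 and Rps16 were the 2 of 83 genes in which every wildtype mouse had less in proximal than in distal tissue and every mouse labelled Notch1+/- had more (2.41%), a pattern found in 1.35% of all 17297 tested genes. For Rps12l1 the log2 differences within mice were -0.04, -0.19 and -0.23 in wildtype and 0.35, 0.21 and 0.69 in the mice labelled Notch1+/-. For Rps16, a small-subunit protein, they were -0.17, -0.16 and -0.01 against 0.11, 0.03 and 0.94. The fitted interaction was 0.57 (SE 0.28) for Rps12l1 and 0.47 (SE 0.32) for Rps16, both with a limma adjusted p of 0.9996, so neither passed the test of the difference itself. In both genes the largest difference came from mouse 3, whose distal library is Notch1+/- distal 3. All 50-base stretches of Rps12l1 (100%) also occur in other annotated transcripts.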

How the results depend on the processing

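The precision is limited by 3 libraries a group (median SE 0.21 within a genotype or location) and by depth, at 67 reads or more per library for protein-coding genes and as few as 4 for Rps4l. The count of called genes was 0 in each of 158 repeats of the 6 comparisons under 27 alternatives, and the lowest adjusted p of any of the 83 genes was 0.155 (averaged location after median-of-ratios scaling). With the mouse as replicate block, the calls stayed at 0 and the medians at -0.10, 0.25, 0.07 and 0.31. The block took the calls among all genes from 41 to 21 in wildtype, 44 to 31 in the libraries labelled Notch1+/- and 260 to 233 averaged. With only the compared libraries in the fit, wildtype location gave 5.

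The median interaction of 0.31 became 0.12 after median-of-ratios scaling and 0.048 without the 2 libraries lowest in summed RPKM. The pair of libraries left out, the pair highest in mitochondrial share and the pseudogene rows found by sequence were alternatives chosen after seeing the data. Leaving out 1 library at a time moved the medians within -0.21 to -0.00413 (location, wildtype), 0.09 to 0.33 (location, Notch1+/-), 0.01 to 0.13 (averaged), 0.02 to 0.27 (genotype, proximal), -0.30 to -0.04 (genotype, distal) and 0.18 to 0.47 (interaction). The medians nearest 0 came without wildtype proximal 2 (location in wildtype, genotype in proximal tissue) and without Notch1+/- distal 3 (the others), and the furthest without wildtype proximal 1 (location in wildtype, genotype in proximal tissue, interaction), wildtype proximal 2 (averaged) and Notch1+/- distal 2 (location in Notch1+/-, genotype in distal tissue). The difference between the median of the 83 genes and that of all genes kept its sign under every alternative for location in the libraries labelled Notch1+/- (0.16 to 0.27), averaged location (0.09 to 0.16), genotype in distal tissue (-0.22 to -0.09) and the interaction (0.03 to 0.27), and not for location in wildtype (-0.04 to 0.08) and genotype in proximal tissue (-0.05 to 0.11).

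Of 58 named differences, none of them called, 48 of 1520 repeats changed sign, and the cause was not tested. After scaling to a constant sum, Rps19 (location, wildtype) became -0.014, Rpl7l1 and Rpl37 (interaction) 0.012 and 0.086, and without mitochondrial genes in the sum 0.00037 and 0.072. With pseudogene rows added by name, Rpl7a became 0.036 (averaged) and 0.089 (genotype, proximal), Rpl38 0.11 and Rpl9 0.13 (genotype, proximal) and Rps19 -0.058 (genotype, distal). With those found by sequence the same 5 values became 0.016, 0.094, 0.14, 0.13 and -0.061, Rpl34 (location, wildtype) -0.023, Rps21 (averaged) 0.030 and Rpl37 (interaction) 0.13. Without the pair highest in mitochondrial share, Rps21 became 0.0015 (location, Notch1+/-) and 0.10 (interaction), and Rpl23 (genotype, distal) 0.027. Without the pair lowest in summed RPKM, Rps4x (location, wildtype) became 0.047, Rps21 0.0015 (location, Notch1+/-) and 0.046 (averaged), Rps27l (averaged) 0.013 and Rpl23 (genotype, distal) 0.027.

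Leaving out 1 library gave -0.13 to 0.30 for Rps19 and -0.54 to 0.047 for Rps4x (location, wildtype). In location, Notch1+/-, it gave -0.24 to 0.13 for Rpl7l1 and -0.29 to 0.0015 for Rps21. Averaged, it gave -0.24 to 0.079 for Rps27l and -0.29 to 0.085 for Rps4l. Between genotypes it gave -0.16 to 0.029 for Rpl7a (proximal), and -0.13 to 0.36 for Rps3 and -0.70 to 0.027 for Rpl23 (distal). In the interaction it gave -0.17 to 0.18 for Rpl37, -0.27 to 0.030 for Rps21, -0.23 to 0.057 for Rpl27 and -0.24 to 0.13 for Rpl7l1.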
